A study of Drosophila melanogaster with 12 samples.

Results

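The Cpr genes of Drosophila melanogaster encode cuticular proteins that carry the Rebers and Riddiford chitin-binding motif, and their symbols give the cytological band in which each gene lies. The members described here were all rows of the RNA-seq count table whose symbol begins with Cpr followed by a digit, which gave 70 of 17075 features. Head RNA was sequenced from flies expressing human TDP-43 (hTDP-43), an RNA-binding protein that accumulates in amyotrophic lateral sclerosis, under a pan-glial driver (Repo > hTDP-43, labelled Repo/TDP43) or a pan-neuronal driver (ELAV > hTDP-43, labelled Elav/TDP43), and from flies with the same transgene and no Gal4 driver (hTDP-43 / +, labelled TDP43/2U). Each RNA-seq group had 2 libraries, all came from heads of flies 8 to 10 days after eclosion in the strain background labelled 2U, and the hTDP-43 transgene was present in every RNA-seq group, controls included. Small RNA libraries of the series, 3 from Repo > hTDP-43 heads and 3 from heads of flies with the driver and no hTDP-43 transgene (Repo / +, labelled Repo/2U), were used at the end. The hTDP-43 / + controls lacked a driver, so effects of the driver insertion and of hTDP-43 expression cannot be told apart in the RNA-seq. The sex of the flies was not given in the sources used here, and the tables have no row for the human transgene, so its level was not checked.

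Insect cuticle is an extracellular layer of chitin fibres embedded in structural proteins. Epidermal cells secrete it, and so do the cells that line the trachea and the foregut and the cells that make the corneal lens of the compound eye. Cuticular proteins with the Rebers and Riddiford motif bind chitin and set the mechanical properties of the layer, tanning enzymes cross-link and pigment it, and chitinases degrade it. Most cuticle is laid down around each moult, under control of the hormone ecdysone, and its genes often lie in tandem clusters of close copies.

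The RNA-seq libraries held 22476024 to 41150009 counts. Between 4551 and 17399 of these fell on Cpr genes in a library. Levels are given as CPM, the counts of a gene in every 1000000 counts of a library after TMM scaling. Photoreceptor genes summed to 36300 and 37100 CPM in Repo > hTDP-43, 42600 and 42700 CPM in ELAV > hTDP-43, with 41400 and 47000 CPM in hTDP-43 / +. These genes mark the eye, and so the head. The 2 control libraries stood apart from each other in the Cpr genes: of the 34 Cpr genes tested in the glial comparison, 22 were higher in control library S15 than in S14, and in 9 the ratio was over 1.5. Whether more or fewer Cpr genes passed without each control library is therefore also given.

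Much of the family had few or no counts in these heads. Of the 70 genes, 2 (Cpr65Ax1 and Cpr65Ax2) had no count in any library and 14 had 3 or fewer counts in every library, while 25 had at least 10 counts in every library. The 6 genes with the highest mean level held 70.1% of all Cpr counts. They were Cpr65Au at a mean of 71.6 CPM, Cpr49Ae at 37.4, Cpr67B at 36.7, Cpr72Ec at 29.6, Cpr73D at 18.5 and Cpr49Ag at 15.1. These levels are not scaled to transcript length. Of the family, 34 genes were not tested in any comparison, and none of these passed 12 counts in a library. Summed over all 70 genes, the Cpr level was 207 and 190 CPM in Repo > hTDP-43, 304 and 328 CPM in ELAV > hTDP-43, and 314 and 455 CPM in hTDP-43 / +. Both glial libraries lay below all 4 others. With bulk heads, fewer cells of a type and less RNA per cell cannot be told apart.

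The first comparison asked how head transcripts differ when hTDP-43 is expressed in glia. With edgeR's quasi-likelihood test and Benjamini-Hochberg adjustment over all features tested, 34 Cpr genes passed the filter on low counts, 10 of them were lower in Repo > hTDP-43 than in hTDP-43 / + and 3 were higher. Across all 13507 features tested, 27.8% changed at this threshold, 12.5% lower and 15.3% higher. For the tested Cpr genes the shares were 38.2% in either direction, 29.4% lower and 8.82% higher. The groups did not overlap in 26 of the 34 genes, with 18 lower and 8 higher in Repo > hTDP-43, where 34.7% of all features tested were lower and 34.3% higher without overlap. The median log2 fold change was -0.53 over the tested Cpr genes and 0.0023 over all features. Only Cpr49Ae, Cpr72Ec and Cpr76Bc passed the threshold in all 10 alternative settings, with highest adjusted p of 0.0245, 0.00576 and 0.0461. Without glial library S05, without S06 or without control library S15 fewer Cpr genes passed, and without S14 more did. The share of all features passing in those fits was not set beside this. The counts with all libraries describe the genes that passed the filter, and 2 of the 3 higher genes passed it through their Repo > hTDP-43 libraries.

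**Figure D1:**
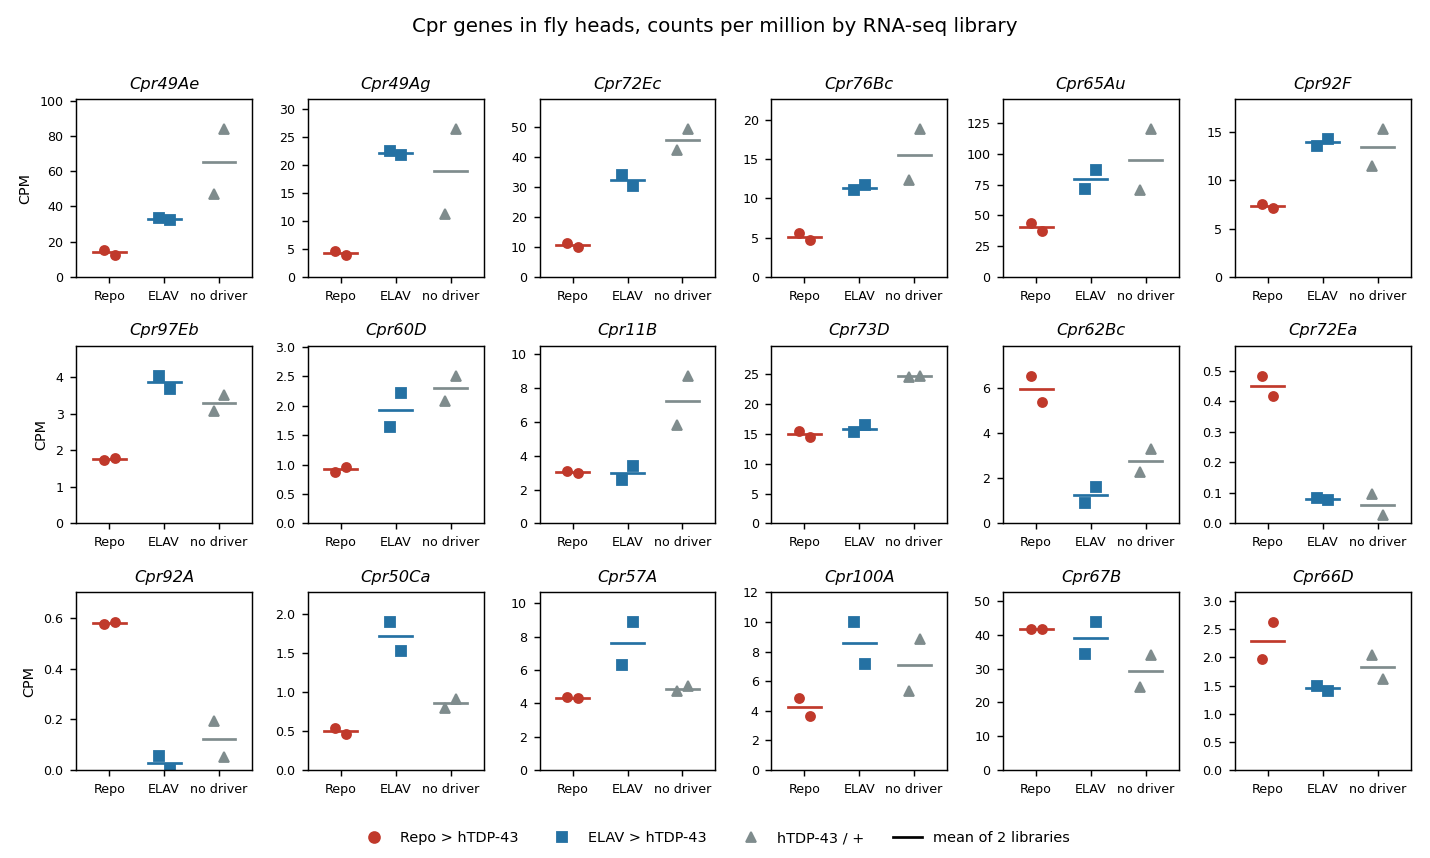
Levels in CPM (linear axes starting at 0) of 18 Cpr genes in each of the 6 RNA-seq libraries, with Repo > hTDP-43 as circles, ELAV > hTDP-43 as squares, hTDP-43 / + as triangles and a line at the mean of 2 libraries. In the first 10 panels both Repo > hTDP-43 libraries lie below both hTDP-43 / + libraries, and in the panels of Cpr62Bc, Cpr72Ea and Cpr92A they lie above them.

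Cpr72Ec encodes a protein of the corneal lens, the cuticle that covers each facet of the eye. It had 11.3 and 9.88 CPM in Repo > hTDP-43 heads, 34.2 and 30.4 CPM in ELAV > hTDP-43 heads, and 42.4 and 49.4 CPM in hTDP-43 / + heads. The 3 groups formed separate levels, lowest with the glial driver. Its log2 fold change in Repo > hTDP-43 against hTDP-43 / + was -2.10 (SE 0.132, adjusted p = 0.000462), the smallest adjusted p in the family. Cpr66D, the other Cpr gene known from the corneal lens, did not follow it: it had 1.97 and 2.63 CPM in Repo > hTDP-43, 1.5 and 1.41 CPM in ELAV > hTDP-43, and 2.05 and 1.62 CPM in hTDP-43 / +, and its glial log2 fold change was 0.33 (SE 0.309, adjusted p = 0.459). The libraries of the glial and control groups overlapped.

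The 49A cluster on arm 2R held the most members (8 genes, 7 of them tested). Cpr49Ae had 15.5 and 12.3 CPM in Repo > hTDP-43, 33.5 and 32.4 CPM in ELAV > hTDP-43, and 47.1 and 83.9 CPM in hTDP-43 / +. Every Repo > hTDP-43 library was below every other library, and the control libraries differed by 1.78 times. The glial log2 fold change was -2.23 (SE 0.289, adjusted p = 0.00511). Cpr49Ag had 4.57 and 3.84 CPM in Repo > hTDP-43, 22.5 and 21.8 CPM in ELAV > hTDP-43, and 11.3 and 26.4 CPM in hTDP-43 / +. The ELAV > hTDP-43 libraries lay between the 2 controls, and the Repo > hTDP-43 libraries below all of them. Its glial log2 fold change was -2.15 (SE 0.407, adjusted p = 0.0137), and the call was lost without S05 or without S06. Without control library S15 the value was -1.39. The other 5 tested genes of the cluster did not pass the test, at log2 fold changes between -0.70 and 1.15. Reads shared between close copies in such clusters may have been split by the counting.

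Cpr65Au, the member with the highest mean over the 6 libraries, had 43.9 and 37.7 CPM in Repo > hTDP-43, 71.5 and 87.1 CPM in ELAV > hTDP-43, and 70.2 and 120 CPM in hTDP-43 / +. The glial libraries were below all others, and the neuronal ones within the range of the controls. The glial log2 fold change was -1.21 (SE 0.249, adjusted p = 0.017), and -0.76 without S15. It was the one tested gene of the 7 at 65A. Cpr76Bc had 5.57 and 4.67 CPM in Repo > hTDP-43, 11 and 11.7 CPM in ELAV > hTDP-43, and 12.3 and 18.8 CPM in hTDP-43 / +. The groups did not overlap, with the glial one lowest and the control highest, and the glial log2 fold change was -1.59 (SE 0.244, adjusted p = 0.00792). Its one tested neighbour at 76B did not pass the test (log2 fold change -0.16).

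Cpr92F and Cpr97Eb fell less. Cpr92F had 7.57 and 7.13 CPM in Repo > hTDP-43, 13.6 and 14.3 CPM in ELAV > hTDP-43, and 11.5 and 15.3 CPM in hTDP-43 / +, a glial log2 fold change of -0.86 (SE 0.187, adjusted p = 0.0203). Cpr97Eb had 1.73 and 1.79 CPM in Repo > hTDP-43, 4.05 and 3.67 CPM in ELAV > hTDP-43, and 3.07 and 3.53 CPM in hTDP-43 / +, a glial log2 fold change of -0.90 (SE 0.259, adjusted p = 0.0462). In both genes the glial libraries were the lowest of the 6. The Cpr97Eb call held in 3 of 10 alternative settings, with adjusted p between 0.0217 and 0.24.

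In 3 further genes, lower in Repo > hTDP-43 than in hTDP-43 / +, the direct comparison of the drivers did not reach the threshold. Cpr73D had 15.5 and 14.5 CPM in Repo > hTDP-43, 15.2 and 16.5 CPM in ELAV > hTDP-43, and 24.5 and 24.7 CPM in hTDP-43 / +. Both driver groups lay below both controls. The log2 fold change was -0.70 with the glial driver (SE 0.106, adjusted p = 0.00768), and with the neuronal driver it was -0.63 (SE 0.115, adjusted p = 0.0697). Cpr11B had 3.12 and 3.0 CPM in Repo > hTDP-43, 2.55 and 3.40 CPM in ELAV > hTDP-43, and 5.79 and 8.74 CPM in hTDP-43 / +. It was at -1.24 on the log2 scale with the glial driver (SE 0.259, adjusted p = 0.0178), and the neuronal driver gave -1.29 (SE 0.273, adjusted p = 0.107). Between the drivers, the log2 difference was -0.08 (SE 0.105) for Cpr73D and 0.05 (SE 0.269) for Cpr11B. Cpr60D had 0.879 and 0.959 CPM in Repo > hTDP-43, 1.64 and 2.22 CPM in ELAV > hTDP-43, and 2.08 and 2.51 CPM in hTDP-43 / +. Its glial log2 fold change was -1.31 (SE 0.322, adjusted p = 0.0286), and the direct comparison fell just short of the threshold at -1.07 (SE 0.327, adjusted p = 0.0503).

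Only Cpr62Bc, Cpr72Ea and Cpr92A were higher in Repo > hTDP-43 than in hTDP-43 / + by this test. Cpr62Bc had 6.57 and 5.38 CPM in Repo > hTDP-43, 0.906 and 1.64 CPM in ELAV > hTDP-43, and 2.27 and 3.32 CPM in hTDP-43 / +. The glial libraries were highest and the neuronal libraries lowest, with no overlap, and the glial log2 fold change was 1.10 (SE 0.266, adjusted p = 0.0273). Cpr72Ea and Cpr92A were detected at trace levels. Cpr72Ea had 16 and 10 counts in Repo > hTDP-43, 3 and 2 in ELAV > hTDP-43, with 3 and 1 in hTDP-43 / +. Scaled to library size, the summed counts were 7.93 times as high in Repo > hTDP-43 as in hTDP-43 / + (95% exact interval 2.75 to 31.3, counting error only, edgeR adjusted p = 0.0307). Cpr92A had 19 and 14 counts in Repo > hTDP-43, 2 and 0 in ELAV > hTDP-43, with 6 and 2 in hTDP-43 / + (adjusted p = 0.0482), and its call held in 3 of 8 alternatives. Both trace genes passed the filter through the libraries in which they were high, so their direction was set by it.

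Cpr67B, one of the 6 most abundant members, was not lower with the glial driver. It had 41.7 and 41.7 CPM in Repo > hTDP-43, 34.2 and 43.8 CPM in ELAV > hTDP-43, and 24.7 and 34.0 CPM in hTDP-43 / +. Both driver groups were above the controls, but neither passed the threshold. The glial log2 fold change was 0.52 (SE 0.160, adjusted p = 0.056, past the threshold in 6 of 10 alternatives with adjusted p between 0.000137 and 0.233), the neuronal one 0.41 (SE 0.181, adjusted p = 0.602). In all, 21 tested members did not pass the glial test, at log2 fold changes between -1.64 and 1.71. Among them were all 3 tested genes of the 47E cluster, between -1.12 and -0.54.

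Of the 34 members too sparse for any test, 8 were lower in both Repo > hTDP-43 libraries than in both hTDP-43 / + libraries, 8 were higher and 18 overlapped. Among all features tested, 34.7% were lower and 34.3% higher without overlap. The share among features too sparse for a test is not given here, so these counts are not a result about the family. The examples here were picked after their values were seen. Cpr12A had 3 and 2 counts in Repo > hTDP-43, 2 and 1 in ELAV > hTDP-43, with 11 and 10 in hTDP-43 / +. Cpr65Av had no counts in either driver group and 4 and 3 in hTDP-43 / +. On the other side, Cpr31A had 8 and 7 counts in Repo > hTDP-43, 3 and 0 in ELAV > hTDP-43, with 1 and 4 in hTDP-43 / +, and Cpr35B had 7 and 7 in Repo > hTDP-43, 1 and 0 in ELAV > hTDP-43, with 4 and 0 in hTDP-43 / +. A count of 0 in a library allows up to 3 counts.

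**Figure D2:**
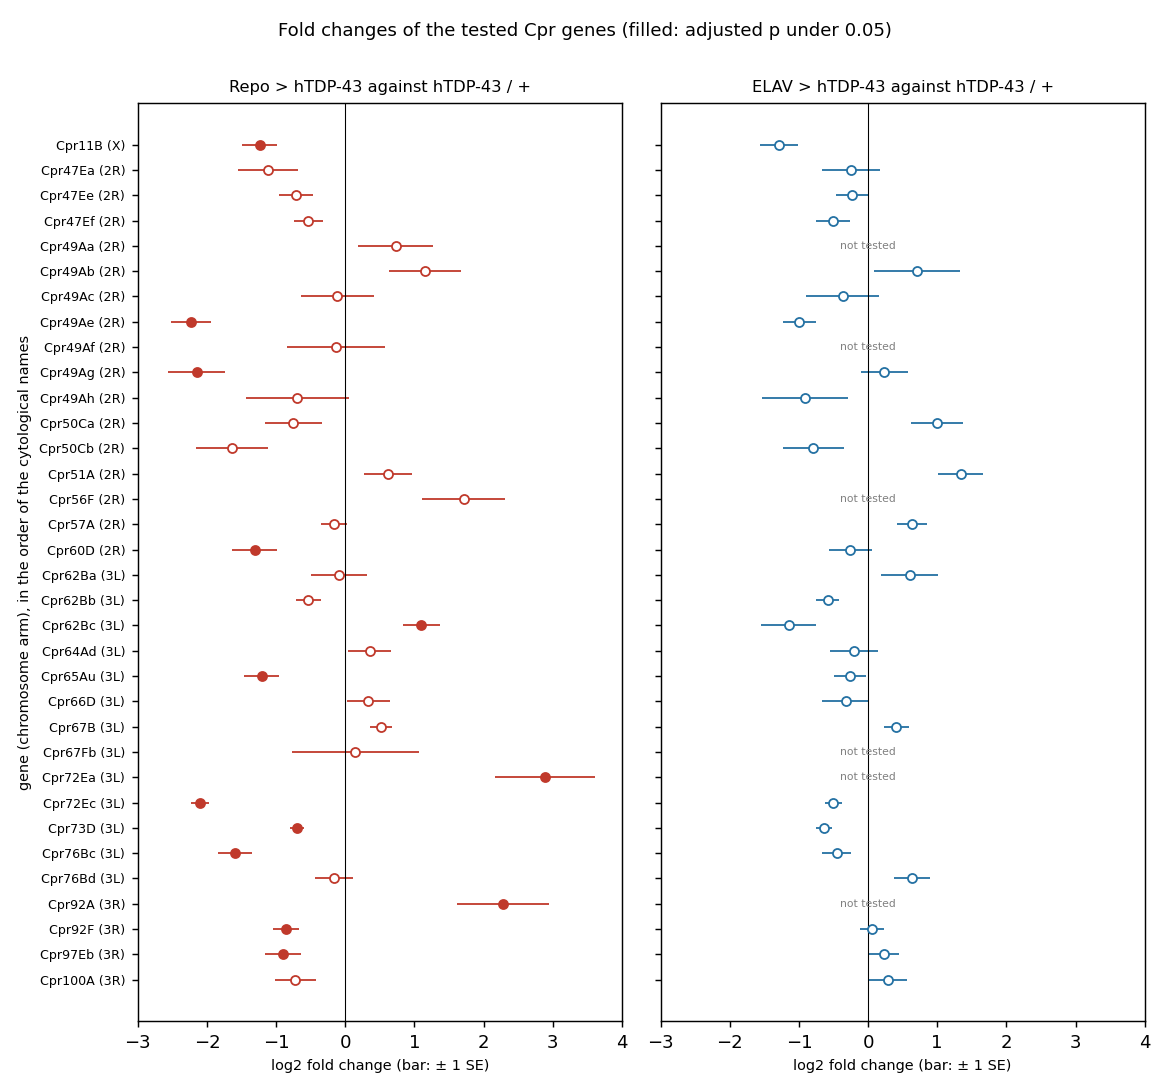
Log2 fold changes with bars of 1 SE for the 34 Cpr genes tested in the glial comparison, in the order of their cytological names with the chromosome arm in brackets; left, Repo > hTDP-43 against hTDP-43 / +, and right, ELAV > hTDP-43 against the same hTDP-43 / + libraries. Filled points passed an adjusted p of 0.05: 10 lie below 0 and 3 above it on the left, and none is filled on the right.

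The second comparison asked the same of neuronal hTDP-43. With edgeR's quasi-likelihood test, 29 Cpr genes were tested in ELAV > hTDP-43 against hTDP-43 / + and 0 changed, where 0.927% of all 12942 features did (0.487% higher and 0.44% lower). At an unadjusted p under 0.05 there were 10, of which 6 were lower and 4 higher, against 8.72% of all features in either direction. DESeq2 called 3 lower, against 1.26% of all features. The groups did not overlap in 18 of the 29 genes, 11 lower and 7 higher, where 18.3% of all features were lower and 18.8% higher without overlap. The median log2 fold change was -0.26 over the tested Cpr genes and 0.00056 over all features. The neuronal log2 fold change of Cpr49Ae was -0.99 (SE 0.242, adjusted p = 0.17), that of Cpr72Ec -0.50 (SE 0.121, adjusted p = 0.166) and that of Cpr62Bc -1.15 (SE 0.398, adjusted p = 0.403). This comparison and the glial one share the control libraries. Without S14, the control library with less Cpr signal, some Cpr genes passed as lower, and without S15 some passed in both directions. The share of all features passing in those fits was not set beside this.

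Set directly against ELAV > hTDP-43, in a fit of all 6 libraries, Repo > hTDP-43 had 10 lower and 3 higher Cpr genes of 36 tested. That is 36.1% in either direction, against 24% of all 13699 features, of which 10.7% were higher and 13.3% lower. The median log2 fold change was -0.28, against 0.00056 over all features. Of the 10 genes lower against hTDP-43 / +, 7 were also lower against ELAV > hTDP-43: Cpr49Ag by a log2 fold change of -2.39 (SE 0.363), Cpr72Ec of -1.61 (SE 0.122), Cpr49Ae of -1.24 (SE 0.253), Cpr76Bc of -1.14 (SE 0.218), Cpr97Eb of -1.13 (SE 0.232), Cpr65Au of -0.96 (SE 0.230) and Cpr92F of -0.92 (SE 0.166). The 3 higher genes were Cpr62Bc and, with the same Repo > hTDP-43 libraries and the same limit of the filter, Cpr72Ea and Cpr92A. The log2 fold change of Cpr62Bc was 2.25 (SE 0.344, adjusted p = 0.00356). The summed counts of Cpr72Ea, 26 against 5, were 5.61 times as high after scaling (95% exact interval 2.12 to 18.7), and those of Cpr92A, 33 against 2, were 17.8 times as high (4.55 to 153). Without either control library more Cpr genes passed as lower in the direct comparison, and without a glial or neuronal library fewer did. The share of all features passing in those fits was not set beside this. Over the 11 alternatives the log2 difference ran from -2.54 to -2.25 for Cpr49Ag, -1.72 to -1.47 for Cpr72Ec and 1.87 to 2.73 for Cpr62Bc. The set of genes lower against hTDP-43 / + also rests on the Repo > hTDP-43 libraries, so the counts of the glial and the direct comparison are not independent.

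Cpr50Ca, Cpr57A and Cpr100A differed between the drivers but passed the test with neither driver against hTDP-43 / +. Cpr50Ca had 0.545 and 0.459 CPM in Repo > hTDP-43, 1.90 and 1.53 CPM in ELAV > hTDP-43, and 0.80 and 0.916 CPM in hTDP-43 / +. Its levels ran in the order ELAV > hTDP-43, hTDP-43 / +, Repo > hTDP-43 without overlap, and it differed between the drivers with a log2 value of -1.76 for Repo > hTDP-43 over ELAV > hTDP-43 (SE 0.379, adjusted p = 0.0143). Cpr57A had 4.36 and 4.30 CPM in Repo > hTDP-43, 6.31 and 8.87 CPM in ELAV > hTDP-43, and 4.73 and 5.02 CPM in hTDP-43 / +. It differed by -0.81 (SE 0.207, adjusted p = 0.0276), and the glial and control libraries lay close together. Cpr100A had 4.88 and 3.63 CPM in Repo > hTDP-43, 10 and 7.19 CPM in ELAV > hTDP-43, and 5.34 and 8.82 CPM in hTDP-43 / +, a difference between the drivers of -1.01 (SE 0.290, adjusted p = 0.0401). The neuronal and control libraries of this gene overlapped.

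Other cuticle genes, in lists drawn up for this tissue with earlier results of these data known, were counted in the same fits. Across all features tested in the glial comparison, 27.8% changed, 12.5% lower and 15.3% higher. Of 29 further genes for proteins with the Rebers and Riddiford motif, 10 were tested in Repo > hTDP-43 against hTDP-43 / +. Of these, 3 were lower and 0 higher. A positive log2 fold change was found in 4 of 10, an unadjusted p under 0.05 in 3, and the median was -0.42. The share in either direction was 30%, near that of all features. The share lower was also 30%, against 12.5% of all features. Crys, which encodes the lens protein drosocrystallin, had 52.6 and 50.5 CPM in Repo > hTDP-43, 81.9 and 83.8 CPM in ELAV > hTDP-43, and 85.8 and 94.9 CPM in hTDP-43 / + (glial log2 fold change -0.80, SE 0.0937, adjusted p = 0.00379). The larval cuticle gene Lcp65Ac had 5 and 3 counts in Repo > hTDP-43, 16 and 15 in ELAV > hTDP-43, with 26 and 34 in hTDP-43 / + (-2.58, SE 0.504, adjusted p = 0.0149). Ccp84Ab had 5 and 0 counts in Repo > hTDP-43, 1 and 5 in ELAV > hTDP-43, with 23 and 48 in hTDP-43 / + (adjusted p = 0.029 with the glial driver, 0.178 with the neuronal driver). Its 2 driver groups overlapped, below both controls. Lcp65Ac and Ccp84Ab, both among the lower genes, passed the filter on low counts through their hTDP-43 / + libraries. Their direction was therefore set by it, so the share of lower genes is not a result about this list.

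Of the 25 Tweedle genes, a separate family of cuticular proteins, 5 were tested in the glial comparison (median log2 fold change -0.11). TwdlG fell, at 8.57 and 9.59 CPM in Repo > hTDP-43, compared with 19.1 and 17.8 CPM in hTDP-43 / + (log2 fold change -1.01, adjusted p = 0.00476). Twdlalpha was higher, at 1.36 and 1.04 CPM compared with 0.256 and 0.262 CPM in hTDP-43 / + (2.22, adjusted p = 0.0158). It passed the filter on low counts through its Repo > hTDP-43 libraries, so its direction was set by the filter. Of the 4 known components of the corneal lens, Crys, Cpr72Ec and retinin were lower with the glial driver and Cpr66D was not called (median -0.65). Of all features, 12.5% were lower. Crys, Cpr72Ec and Cpr66D were already counted above, so the lens count is not separate from those. Retinin, an abundant lens protein outside the Cpr family, had 187 and 183 CPM in Repo > hTDP-43, 418 and 432 CPM in ELAV > hTDP-43, and 242 and 288 CPM in hTDP-43 / +. It fell by 0.51 on the log2 scale with the glial driver (adjusted p = 0.0192) and was higher with the neuronal driver (0.68, adjusted p = 0.0445), against controls that both tests share.

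Genes of chitin and of tanning did not move as one. Among the chitin genes, 7 of 32 tested were higher and 6 lower in Repo > hTDP-43 (median -0.04), 40.6% in either direction against 27.8% of all features. The chitinase gene Cht2 had 21.6 and 25.0 CPM in Repo > hTDP-43, 4.28 and 6.39 CPM in ELAV > hTDP-43, and 2.88 and 1.96 CPM in hTDP-43 / + (glial log2 fold change 3.29, adjusted p = 0.000462). Cht4 had 15 and 11 counts in Repo > hTDP-43 against 0 and 2 in hTDP-43 / + (adjusted p = 0.0241), but 16 and 1 in ELAV > hTDP-43. Cht4 and, among the other higher chitin genes, Cht8, obst-J and ChLD3 passed the filter on low counts through their Repo > hTDP-43 libraries. Their direction was set by the filter. The count of higher chitin genes and the share in either direction are therefore not a result about this list. Cda4, a chitin deacetylase gene, and Cht7 fell, at log2 fold changes of -1.70 (adjusted p = 0.0247) and -1.03 (adjusted p = 0.00948). Among the tanning and pigment genes, 8 of 18 tested were lower and 3 higher (median -0.29), 61.1% in either direction against 27.8% of all features. Pu, which encodes the first enzyme of pteridine synthesis and so supplies the cofactor of tyrosine hydroxylase, had 76.4 and 71.1 CPM in Repo > hTDP-43, 141 and 141 CPM in ELAV > hTDP-43, and 221 and 248 CPM in hTDP-43 / +. It was lower with both drivers (log2 fold changes -1.66, adjusted p = 0.000448, and -0.74, adjusted p = 0.027).

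The gene yellow-d fell with the glial driver (log2 fold change -1.30, adjusted p = 0.00176). The genes e (ebony, which conjugates dopamine to beta-alanine), yellow-h and t (tan, which reverses that step) rose, by log2 fold changes of 1.26, 0.42 and 0.34 (adjusted p = 0.000598, 0.0461 and 0.0212). With the neuronal driver t was lower (-0.85, adjusted p = 0.00949). Ebony and tan also act on neurotransmitters in the head. Of 21 tested genes of moulting hormone signalling and epidermal control, 6 were lower in Repo > hTDP-43 and 1 higher (median -0.20). That is 33.3% in either direction, near the 27.8% of all features. By direction the shares were 28.6% lower and 4.76% higher, against 12.5% lower and 15.3% higher of all features. The 2 lower genes with the largest change were Cyp18a1, whose enzyme inactivates ecdysone (-0.82, adjusted p = 0.00443), and ETHR, the receptor for ecdysis triggering hormone (-0.56, adjusted p = 0.0445). The higher gene was shd, whose enzyme makes the active hormone (1.01, adjusted p = 0.0177). Hr38, a nuclear receptor gene needed for adult cuticle in flies, was lower with the neuronal driver (-0.71, adjusted p = 0.027).

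**Figure D3:**
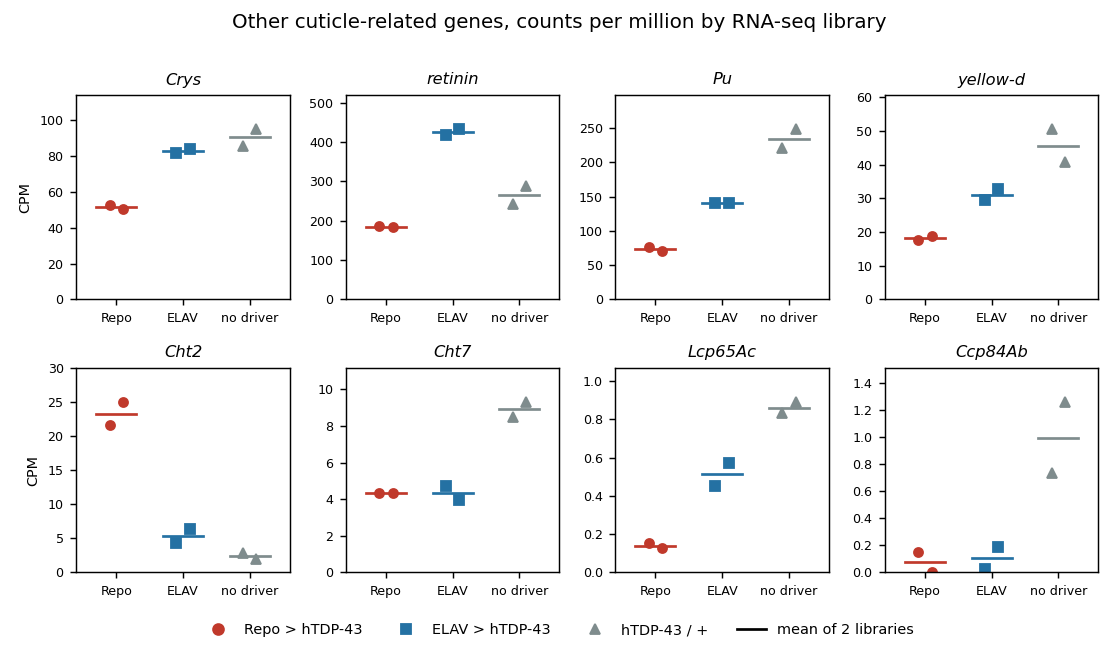
Levels in CPM (linear axes starting at 0) of 8 cuticle-related genes outside the Cpr family in each of the 6 RNA-seq libraries, with symbols and mean lines as for the Cpr genes. Crys, Pu, yellow-d and Lcp65Ac are lowest in both Repo > hTDP-43 libraries, Cht2 is highest there, and Cht7 and Ccp84Ab are below hTDP-43 / + in both driver groups.

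Markers of other cell types were counted in the glial comparison as well, where 27.8% of all features tested changed, 12.5% lower and 15.3% higher. For trachea and epidermis and for photoreceptors the share called was 25% each, below that of all features. Genes of trachea and epidermis, the cuticle-secreting tissues, summed to 279 and 283 CPM in Repo > hTDP-43, 346 and 354 CPM in ELAV > hTDP-43, and 344 and 374 CPM in hTDP-43 / +, and 2 of the 8 tested were lower (trh at a log2 fold change of -0.46 and pio at -0.46). Of 8 hemocyte markers, 3 were higher in Repo > hTDP-43 and 2 lower, with sums of 603 and 678 CPM against 436 and 399 CPM in hTDP-43 / +. Neuronal markers were lower in 6 of 7 and summed to 5790 and 6050 CPM in Repo > hTDP-43, compared with 7620 and 8850 CPM in hTDP-43 / +. Of the photoreceptor markers 2 of 8 were lower. Among 9 glial markers 2 were higher and 3 lower. The fat body gene Lsp2 fell by 4.98 on the log2 scale, and fat body markers summed to 8840 and 8800 CPM in Repo > hTDP-43, compared with 14500 and 13500 CPM in hTDP-43 / +. Most of that sum was Rfabg, at 8790 and 8750 CPM compared with 14000 and 12900 CPM. Testis markers were higher in 6 of 7 in Repo > hTDP-43, although their sums were lower, at 391 and 369 CPM compared with 406 and 497 CPM in hTDP-43 / +. Most of the testis sum was bol, the 1 lower gene, at 317 and 327 CPM compared with 388 and 489 CPM. The part of these markers in the Cpr differences was not tested.

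A second kind of library from the series allowed a look at the same genes with another control. The small RNA libraries of Repo > hTDP-43 and Repo / + heads held 31074082 to 37736599 counts. Reads on exons in such libraries are short RNAs, which can include fragments of transcripts, and not a measure of mRNA level. All 70 Cpr genes were found through their RefSeq transcripts and 11 had a mean of at least 10 counts per library. Scaled to library totals, 4 of the 11 were lower in every Repo > hTDP-43 library than in any Repo / + library and 0 were higher, where 3.43% of 8769 genes were lower without overlap and 18.1% higher.

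Cpr49Ag had 6, 8 and 11 small RNA counts in Repo > hTDP-43 and 40, 23 and 23 in Repo / + (log2 ratio of the scaled means -1.83). It reached the minimum mean of 10 counts through its Repo / + libraries. Its direction was set by that minimum, so its place among the 4 lower genes does not count as a result. Cpr49Ae had 40, 33 and 22 counts in Repo > hTDP-43 and 65, 57 and 43 in Repo / + (-0.83), and Cpr65Au had 34, 24 and 29 counts in Repo > hTDP-43 and 63, 51 and 49 in Repo / + (-0.96). Cpr49Ag, Cpr49Ae and Cpr65Au were also lower in the RNA-seq. The other gene of the 4, Cpr78Ca, had too few RNA-seq counts to be tested, and was named after its values were seen. It had 41, 43 and 40 small RNA counts in Repo > hTDP-43 and 117, 43 and 69 in Repo / + (-0.93), and its groups were separated only by the scaling. An exact two-sided permutation test gave p = 0.1 for each of the 4, the smallest p that 3 against 3 libraries allow, so none can pass 0.05. Cpr72Ec did not follow: its counts of 376, 421 and 394 in Repo > hTDP-43 and 430, 377 and 364 in Repo / + overlapped (log2 ratio -0.03, exact permutation p = 0.9), and Cpr73D and Cpr92F overlapped as well.

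**Figure D4:**
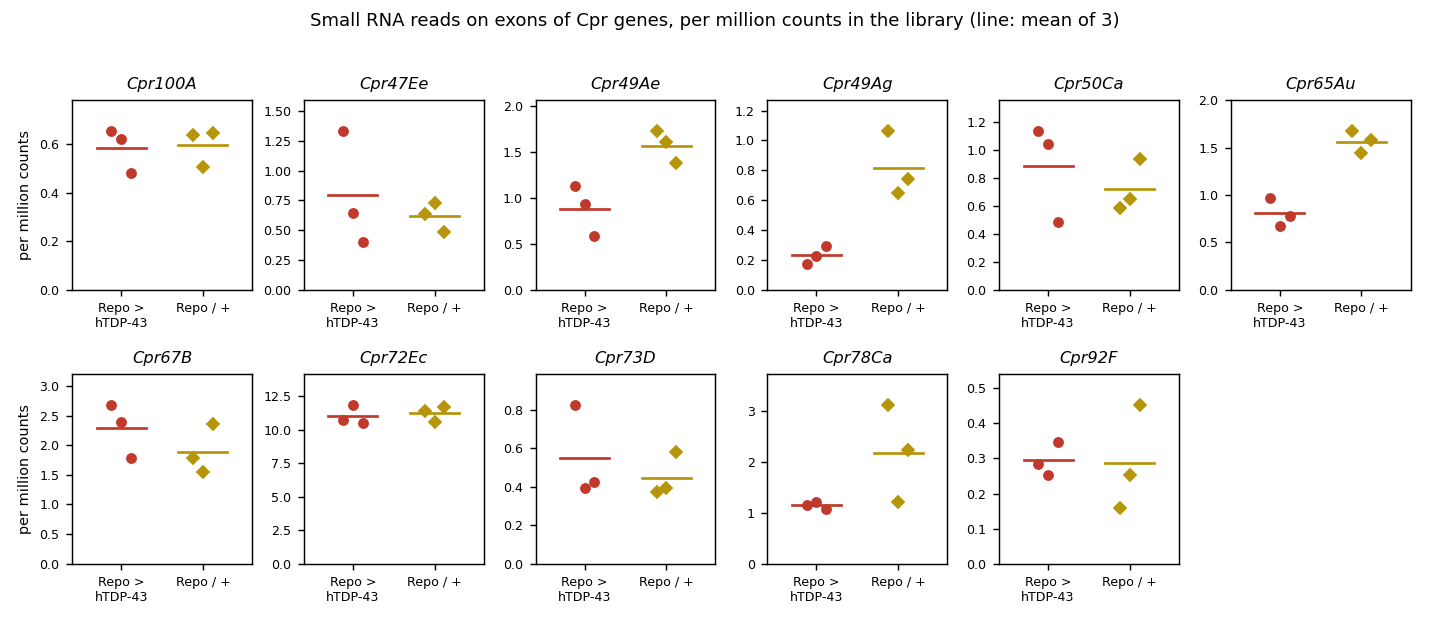
Small RNA reads on the exons of the 11 Cpr genes with a mean of at least 10 counts, in CPM of the library total (linear axes starting at 0), with the 3 Repo > hTDP-43 libraries left, the 3 Repo / + libraries right and a line at each mean. The groups are separate in Cpr49Ae, Cpr49Ag, Cpr65Au and, narrowly, Cpr78Ca, and overlap in the other 7.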

How the data were processed

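Total RNA of heads was sequenced as paired-end RNA-seq libraries, and small RNAs in separate libraries. Per the study's methods, the authors used STAR for alignment of the RNA-seq to dm3, removed ribosomal RNA reads and estimated abundance with TEtranscripts, which shares reads with several alignments. The deposited tables hold counts per feature, without normalization; strand use in the counting was not given in the sources used here. No further per-sample column was present.

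Each driver comparison was fitted on its own 4 libraries, and the drivers against each other on all 6, with edgeR 4.0.16 (filterByExpr, TMM, quasi-likelihood test, R 4.3.3) over all features with Benjamini-Hochberg adjustment at 0.05. SE is the log2 fold change divided by the square root of F. CPM use TMM factors of all 6 libraries. With 2 libraries per group, p-values measure the spread between these libraries. DESeq2 1.42.0, other scalings and filters and leaving out each library were the alternatives. On simulated data for the glial comparison (13507 features), 110 of 200 genes shifted by 1 on the log2 scale were recovered, with 15 false calls.

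Small RNA counts were summed over exons of the RefSeq transcript with the most counts. Named genes were called members with at least 1 CPM (up to 12 per direction), the 6 most abundant, Cpr66D, Cpr72Ec, called members with 3 or fewer counts throughout a group, and from each list the 2 called genes of largest change per direction with the glial driver and all called with the neuronal driver. Members and lists were chosen with earlier results of these data known. Gene symbols and arms came from RefSeq Release 6, where all 70 members matched; no coordinates or sequences were used.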

Additional observations from a re-analysis of the deposited data

Results flagged for a closer look

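For 13 Cpr genes the effect of the 2 drivers differed by a test of the difference itself, the direct edgeR quasi-likelihood comparison of Repo > hTDP-43 with ELAV > hTDP-43 (adjusted p under 0.05). The log2 differences, Repo > hTDP-43 minus ELAV > hTDP-43, were -2.39 for Cpr49Ag, -1.76 for Cpr50Ca, -1.61 for Cpr72Ec, -1.24 for Cpr49Ae, -1.14 for Cpr76Bc, -1.13 for Cpr97Eb, -1.01 for Cpr100A, -0.957 for Cpr65Au, -0.922 for Cpr92F and -0.805 for Cpr57A. They were 2.25 for Cpr62Bc, 2.42 for Cpr72Ea and 4.02 for Cpr92A, where the last 2 are fitted values of sparse genes that depend on the prior count and that passed the filter on low counts through the Repo > hTDP-43 libraries, in which they are high. Of the 13, Cpr49Ag, Cpr72Ec and Cpr62Bc passed the threshold in all 11 alternatives. With 2 libraries in a group, no test for a single stray library applies.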

How the results depend on the processing

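Against hTDP-43 / +, Cpr49Ae, Cpr72Ec and Cpr76Bc stayed lower in Repo > hTDP-43 past the threshold in all 10 alternatives, and none of the 13 calls changed direction. The counts of Cpr genes higher and lower were 0 and 4 at an adjusted p under 0.01, and without single libraries they ran from 0 to 4 higher and 3 to 14 lower. Without S05 or without S06, where 1 glial library is assumed to vary like the controls, they were 0 and 3. For ELAV > hTDP-43 DESeq2 gave 3 lower and the fit of all 6 libraries 1 lower, and without single libraries there were 0 to 2 higher and 0 to 7 lower. Between the drivers, 1 gene was higher with DESeq2, with at least 10 counts in every library and at an adjusted p under 0.01, where 4 were lower; without single libraries there were 1 to 3 higher and 2 to 13 lower. Beside these counts, a share of all features under the same setting is given only for DESeq2 with ELAV > hTDP-43 (1.26% lower). Whether the counts move with the family or with all features was not tested, so their changes between settings are not a result about the family. The direction turned for Cpr57A in the glial comparison with library size alone (0.00705), and between the drivers for Cpr73D with library size alone (0.062) and upper-quartile scaling (0.0489). Over the fits without single libraries, the neuronal log2 fold change ran from -0.25 to 0.981 for Cpr49Ag, -0.137 to 0.288 for Cpr92F and -0.0317 to 0.694 for Cpr100A, lowest without S14, and from -0.595 to 0.178 for Cpr65Au, highest without S15. The difference between the drivers ran from -0.142 to 0.28 for Cpr11B and -0.0603 to 0.301 for Cpr67B, lowest without S11. None of these values was past the threshold with all libraries, but the neuronal values of Cpr49Ag without S15 and of Cpr65Au without S14 were, and the cause was not tested. The median log2 fold change of Cpr genes with the glial driver ran from -0.73 to -0.18, and library size alone moved the median of all features to 0.17. Scaling small RNA reads to exon counts, added after seeing the data, moved Cpr65Au to -1.23, Cpr72Ec to -0.274 and Cpr100A to -0.288. It left 5 genes lower without overlap, but the share of all genes lower under this scaling was not computed. No paired analysis was possible because library names are not shared between groups.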
